A study of Mus musculus with 8 samples.

Results

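The genes described here are the D, E and A cyclins with the kinases they bind and the phosphatase that switches one of them on: Ccnd1, Ccnd2, Ccnd3, Ccne1, Ccne2, Ccna2, Cdk2, Cdk4, Cdk6 and Cdc25a. They were taken from the deposited table by gene symbol, 10 of its 22798 genes, and all 10 passed the filter on low values (an average of 10 or more across the libraries). Their transcripts were followed in 3T3-L1, a preadipocyte cell line of Swiss albino mouse origin that resembles fibroblasts and matures into fat cells under hormones. The study sequenced 8 libraries of total RNA, 2 at each of 4 stages of adipogenesis. The labels give 10% serum for all groups, and 48 hours of confluence for quiescence, clonal expansion and differentiation. At proliferation the cells were dividing exponentially, and at quiescence they had been confluent for 48 hours. At clonal expansion, confluent cells had received an adipogenic cocktail 10 hours earlier, made of insulin (given in the labels as 5 µg/µl), the glucocorticoid dexamethasone at 1 µM and isobutylmethylxanthine, which raises cyclic AMP, at 0.25 mM. At differentiation, 6 days had passed since the cocktail, which was left on for 48 hours and followed by insulin. All groups are the same cell line, with no genetic change named in the labels, and results hold for that line.

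D cyclins bind CDK4 or CDK6 in G1, and the resulting kinases phosphorylate the retinoblastoma protein RB1 and its relatives, which releases E2F transcription factors. E2F then raises transcription of the E cyclins, which activate CDK2 at the entry to S phase, and of cyclin A2, which serves CDK2 during S phase and CDK1 later. CDC25A removes the inhibitory phosphates that hold CDK2 in check, while INK4 and CIP/KIP proteins inhibit the kinases. In 3T3-L1 cells, growth-arrested preadipocytes re-enter the cell cycle after the cocktail before they mature into fat cells, a phase known as mitotic clonal expansion.

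Values are pseudo-counts, read counts that the authors brought to a common library size. They summed to between 122413485 and 151529060 per library. A gene is called changed below where limma, fitted to log2(value + 1) of all 14647 genes tested, gave a Benjamini-Hochberg adjusted p under 0.05. The libraries of a stage are numbered as experiments 1 and 2, and nothing says that they came from separate cultures, so a p-value speaks of the spread among these libraries alone, and that spread could be technical. All 7 preadipocyte markers were present at every stage, and the summed fat cell markers lay at 11042 to 18892 before differentiation and at 2917990 to 2996092 in its libraries. Of 6 macrophage and blood markers 3 averaged at least 10 at each stage, led by Lyz2 (stage means of 392 to 3791), with a summed level of 730 to 4809 per library, while Ptprc never passed 2.73 and Emr1 never passed 1.03. The 5 endothelial markers summed to 135 to 311, with 2 to 4 of them averaging at least 10. The 5 epithelial markers summed to 3.6 to 21.5 before differentiation and to 860 to 1821 in its libraries, mostly Krt18 (1712 and 801), with Epcam at 0 throughout. The 5 muscle markers summed to 247 to 1487 before differentiation and to 5201 to 5734 in its libraries, mostly Des. The part of these markers' cells in the results was not tested. In RNA from a whole culture, fewer cells that express a gene and less RNA per cell cannot be told apart, and nothing here measures protein or kinase activity. With every library scaled to the same total, the median gene shifted by -0.24 between quiescence and clonal expansion, -0.23 between quiescence and differentiation, -0.27 between proliferation and clonal expansion and -0.26 between proliferation and differentiation on the log2 scale. The genes called higher and lower were then 3763 and 6312, 3787 and 6326, 3178 and 6412, and 3750 and 6533 in these comparisons, against near-equal numbers as deposited.

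**Figure D1:**
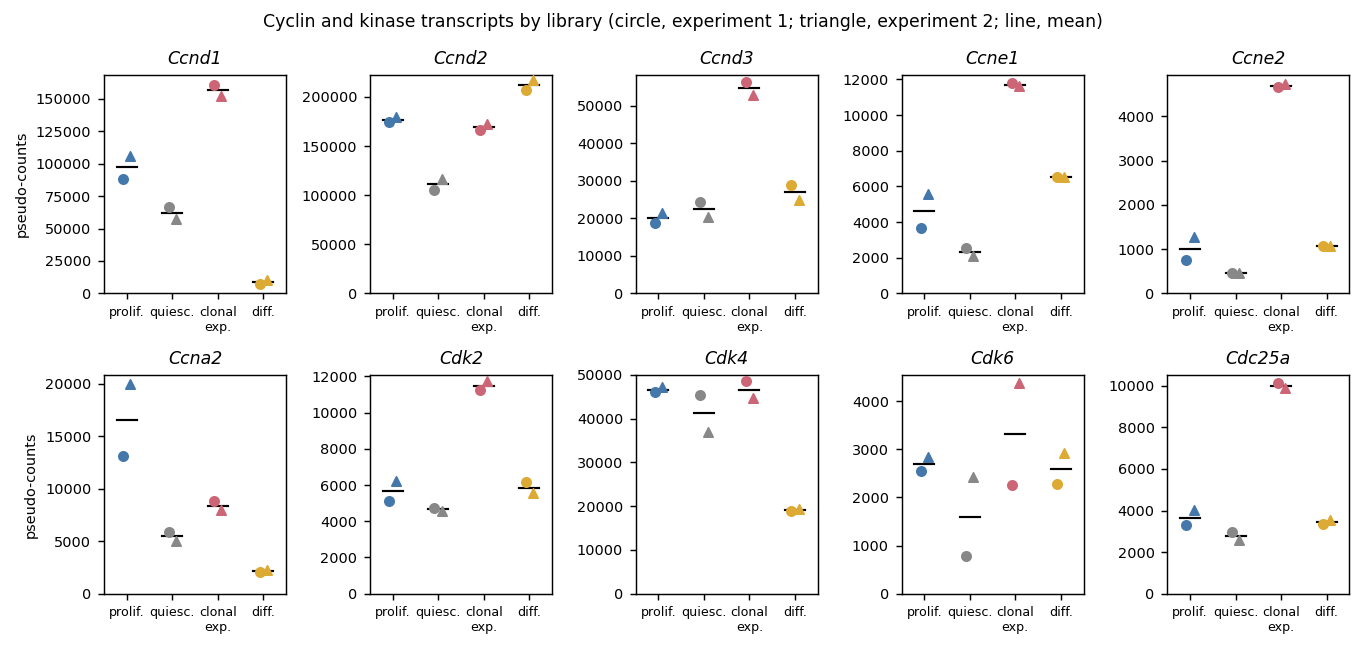
Pseudo-counts (linear axis from 0 in each panel) of the 10 genes in the 8 libraries, with a circle for experiment 1, a triangle for experiment 2 and a line for the stage mean. Both clonal expansion libraries lie above all others for Ccnd1, Ccnd3, Ccne1, Ccne2, Cdk2 and Cdc25a. The share of all tested genes that do so was not counted. Ccnd2 is highest at differentiation, Ccna2 is highest at proliferation, and the Cdk6 libraries are wide apart at quiescence and clonal expansion.

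Cyclin D1 was the member that fell most on the way to fat cells. Ccnd1 (gene ID 12443, chromosome 7, 152115836 to 152125830, build mm9) gave 88354 and 106267 pseudo-counts in the proliferating libraries, 66974 and 57760 in the quiescent ones, 161159 and 152405 during clonal expansion, and 7113 and 10551 after differentiation. No stage overlapped another, and the order was clonal expansion, proliferation, quiescence and differentiation, each called apart from the next. From quiescence to clonal expansion Ccnd1 rose 2.52-fold (log2 1.33, SE 0.18, adjusted p 8.69e-05). From clonal expansion to differentiation it fell 18.1-fold (log2 -4.18, SE 0.18, adjusted p 2.33e-08), and it ended 7.18-fold below quiescence (log2 -2.84, adjusted p 3.48e-07) and 11.2-fold below proliferation (log2 -3.48, adjusted p 7.82e-08). The early steps were smaller. Quiescent cells had 1.56-fold less Ccnd1 than proliferating ones (log2 -0.64, SE 0.18, adjusted p 0.027), a call lost without proliferation 2 (log2 -0.51, adjusted p 0.221) or without quiescence 2 (log2 -0.53, adjusted p 0.0843), with no filter on low values (adjusted p 0.169) and with no mean-variance trend (adjusted p 0.0787). Clonal expansion stood 1.62-fold above proliferation (log2 0.69, SE 0.18, adjusted p 0.00602), which was lost without proliferation 1 (log2 0.56, adjusted p 0.0604), with equal library totals (log2 0.42, adjusted p 0.0544), with quantile normalization (log2 0.37, adjusted p 0.0834) and with no filter on low values (adjusted p 0.0686).

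Cyclin D2 took another course and was at its highest in the differentiated cells. Ccnd2 (gene ID 12444, chromosome 6, 127075727 to 127101066) showed 174204 and 179779 pseudo-counts in the proliferating libraries, 105452 and 116301 in the quiescent ones, 166682 and 172560 during clonal expansion, and 207207 and 217202 after differentiation. The quiescent libraries were the lowest and the other stages lay above them without overlap. Ccnd2 fell 1.60-fold on entry into quiescence (log2 -0.68, SE 0.11, adjusted p 0.00233) and rose 1.53-fold to clonal expansion (log2 0.62, SE 0.11, adjusted p 0.000745). Differentiated cells had 1.92-fold more Ccnd2 than quiescent cells (log2 0.94, SE 0.11, adjusted p 4.03e-05), where they had 7.18-fold less Ccnd1. The further step from clonal expansion to differentiation was 1.25-fold (log2 0.32, SE 0.11, adjusted p 0.0248), and it lost its call without either library of clonal expansion or of differentiation (log2 0.29 to 0.36, adjusted p 0.0569 to 0.13). Differentiation and proliferation were not called apart (log2 0.26, 95% interval 0.01 to 0.51, adjusted p 0.0619), and this difference was -0.01 with equal library totals. It was called with the length trend removed (log2 0.40, adjusted p 0.00457), with only these stages in the fit (adjusted p 0.0493) and without quiescence 1 or quiescence 2 (adjusted p 0.0466 and 0.0456). Proliferation and clonal expansion were not called apart either as deposited (log2 -0.06, 95% interval -0.31 to 0.19). With equal totals and with quantile normalization, Ccnd2 was lower at clonal expansion than at proliferation (log2 -0.34, adjusted p 0.0209, and log2 -0.41, adjusted p 0.0125).

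Cyclin D3 rose at clonal expansion and otherwise varied little. Ccnd3 (gene ID 12445, chromosome 17, 47642000 to 47736279) measured 18840 and 21265 pseudo-counts in the proliferating libraries, 24321 and 20436 in the quiescent ones, 56369 and 52772 during clonal expansion, and 28782 and 24939 after differentiation. The clonal expansion libraries stood apart from all others, while those of proliferation and quiescence overlapped. Ccnd3 rose 2.45-fold from quiescence to clonal expansion (log2 1.29, SE 0.12, adjusted p 9.33e-06) and fell 2.04-fold from there to differentiation (log2 -1.03, SE 0.12, adjusted p 3.13e-05). Quiescence was called apart neither from proliferation (log2 0.16, 95% interval -0.12 to 0.43) nor from differentiation (log2 0.27, 95% interval -0.01 to 0.54). That last difference was called without quiescence 1 (log2 0.39, adjusted p 0.0203). Differentiation was 1.34-fold above proliferation (log2 0.42, SE 0.12, adjusted p 0.0115), a call lost without proliferation 1 (log2 0.33, adjusted p 0.0896), without differentiation 1 (log2 0.32, adjusted p 0.104), with equal library totals (log2 0.15, adjusted p 0.289), with quantile normalization (log2 0.23, adjusted p 0.113) and with no filter on low values (adjusted p 0.0544).

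These courses changed the share of each D cyclin in the D cyclin RNA. Per kb of transcript, Ccnd1 made up 40.9% ± 2.23 (SD, n = 2) of the summed D cyclins in proliferating cells, 37.2% ± 2.37 in quiescent cells, 44.3% ± 0.718 during clonal expansion and 4.85% ± 1.29 after differentiation. The share of Ccnd2 was 44.1% ± 2.37, 39.2% ± 4.31, 28.4% ± 1.36 and 69.0% ± 1.62 in the same order, and that of Ccnd3 was 14.9% ± 0.143, 23.6% ± 1.94, 27.3% ± 0.637 and 26.2% ± 2.91. Ccnd1 and Ccnd2 were thus near equal in proliferating and quiescent cells, and at differentiation Ccnd2 exceeded Ccnd1 17.2-fold and 12.2-fold in the libraries 1 and 2. The summed D cyclins per kb were 44783 ± 1830 at quiescence and 48597 ± 480 at differentiation, so similar totals per kb came from unlike mixtures. This similarity depends on the division by length. Without it the sum was higher at differentiation, as mean Ccnd2 went from 110876 to 212205 pseudo-counts and mean Ccnd1 from 62367 to 8832. They reached 94543 ± 2202 at clonal expansion and 63469 ± 4821 at proliferation. Without division by length, Ccnd2 held the largest share at every stage, clonal expansion included (44.5%).

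**Figure D2:**
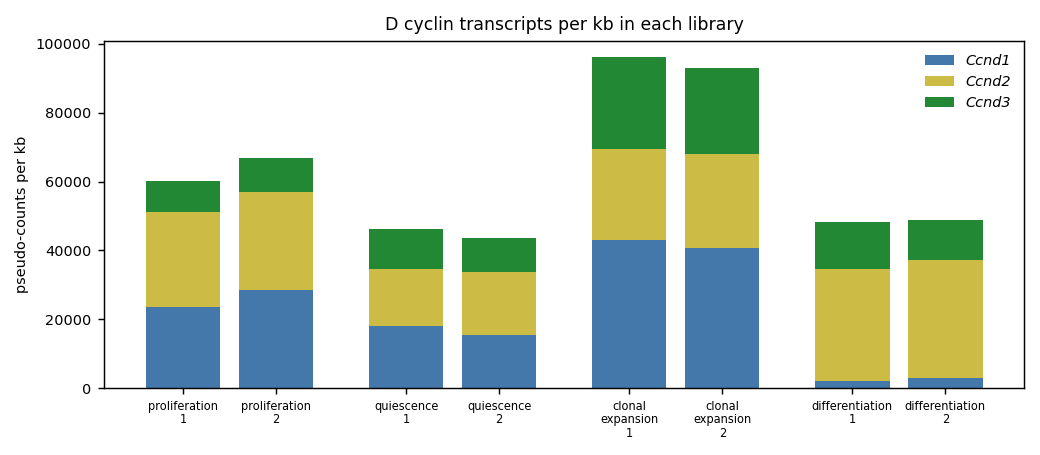
Pseudo-counts per kb of transcript of Ccnd1, Ccnd2 and Ccnd3, stacked in each of the 8 libraries. The bars of quiescence and differentiation are of similar height, but Ccnd1 takes up 37.2% of the former and 4.85% of the latter on average.

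Of the kinase partners of the D cyclins, Cdk4 was by far the more abundant and was low only in differentiated cells. Cdk4 (gene ID 12567, chromosome 10, 126500659 to 126504338) gave 46010 and 47276 pseudo-counts in the proliferating libraries, 45458 and 36910 in the quiescent ones, 48527 and 44675 during clonal expansion, and 18922 and 19287 after differentiation. Clonal expansion overlapped both proliferation and quiescence, no pair of these stages was called apart, and differentiation lay below them all. Cdk4 fell 2.44-fold from clonal expansion to differentiation (log2 -1.29, SE 0.11, adjusted p 3.85e-06), to 2.14-fold below quiescence (log2 -1.10, adjusted p 1.48e-05). It was the member of the 10 that was not called between quiescence and clonal expansion (log2 0.19, SE 0.11, 95% interval -0.07 to 0.44, adjusted p 0.178). The sign of this difference flipped with equal library totals (log2 -0.05) and with quantile normalization (log2 -0.14), and without quiescence 1 it was called higher (log2 0.34, adjusted p 0.0167). Without quiescence 1, Cdk4 was also called lower at quiescence than at proliferation (log2 -0.34, adjusted p 0.0451, against -0.19 with all libraries). Clonal expansion was not called apart from proliferation as deposited (log2 0.00, 95% interval -0.26 to 0.26), but was called lower with equal totals (log2 -0.28, adjusted p 0.0446) and with quantile normalization (log2 -0.34, adjusted p 0.0246).

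Cdk6, the other partner of the D cyclins, was scarce, and its libraries disagreed at quiescence and at clonal expansion. Cdk6 (gene ID 12571, chromosome 5, 3344312 to 3522225) showed 2546 and 2829 pseudo-counts in the proliferating libraries, 783 and 2414 in the quiescent ones, 2251 and 4366 during clonal expansion, and 2269 and 2911 after differentiation. The low value is quiescence 1 and the high one clonal expansion 2, and no stage was called apart from its neighbour in level. Per kb, Cdk4 made up 99.0%, 99.3%, 98.7% and 97.6% of the summed RNA of both kinases from proliferation to differentiation. Cdk6 was called 2.28-fold higher at clonal expansion than at quiescence (log2 1.19, SE 0.45, adjusted p 0.0365). That call was lost without any one of 6 libraries: log2 0.38 (adjusted p 0.304) without quiescence 1, 0.71 (adjusted p 0.226) without clonal expansion 2, and an unchanged 1.19 (adjusted p 0.0585 to 0.063) without either library of proliferation or differentiation. It was also lost with equal library totals (log2 0.95, adjusted p 0.0919), no filter on low values (adjusted p 0.224), no mean-variance trend (adjusted p 0.0961) and only these stages in the fit (adjusted p 0.0932). Without quiescence 2, Cdk6 was called lower at quiescence than at proliferation (log2 -1.78, adjusted p 0.00358) and higher at differentiation than at quiescence (log2 1.71, adjusted p 0.000783), against uncalled differences of -0.96 (95% interval -1.96 to 0.03) and 0.90 (95% interval -0.10 to 1.90) with all libraries.

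At quiescence, and less so at clonal expansion, the gap between the libraries moved with transcript length. From transcripts up to 2 kb to those over 10 kb, the median gap went from -0.034 to 0.086 at differentiation and from -0.002 to -0.064 at proliferation. Cdk6 has the longest transcript of the 10 (11.5 kb), and quiescence 2 exceeded quiescence 1 by 1.62 on the log2 scale, a gap larger than that of 99.2% of genes tested. The 292 genes with transcripts over 10 kb had a median gap of 0.52 between these libraries, and those up to 2 kb one of -0.25. At clonal expansion the gap was 0.95 for Cdk6 and 0.20 for the median gene over 10 kb. Transcript length was not tested as a part of any Cdk6 difference beyond a fit with the length trend removed, in which the rise of Cdk6 at clonal expansion stayed called and Cdk6 was also called higher at differentiation than at quiescence (log2 0.93, adjusted p 0.0216). Ccnd2, next in length (6.33 kb), differed by 0.14 and 0.05 between the libraries of these stages.

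**Figure D3:**
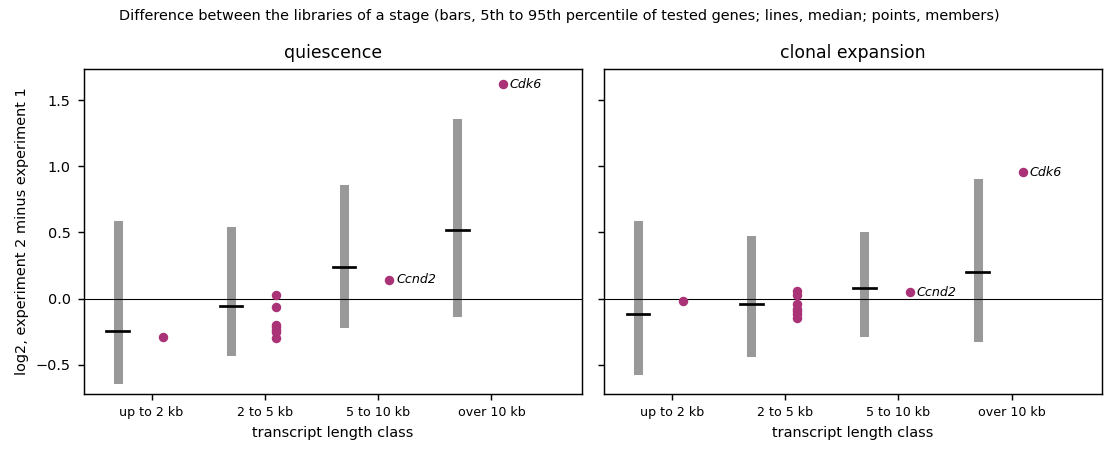
Difference between the libraries of quiescence and of clonal expansion (log2, experiment 2 minus experiment 1) by transcript length class, with grey bars from the 5th to the 95th percentile of tested genes, black lines at the median and points for the 10 members. Cdk6 lies above its class in both stages, and the class median rises with length, from -0.25 to 0.52 at quiescence.

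Both E cyclins fell at quiescence and peaked at clonal expansion. Ccne1 (gene ID 12447, chromosome 7, 38883003 to 38892509) measured 3687 and 5556 pseudo-counts in the proliferating libraries, 2568 and 2097 in the quiescent ones, 11794 and 11642 during clonal expansion, and 6542 and 6502 after differentiation. Ccne2 (gene ID 12448, chromosome 4, 11118501 to 11131926) measured 747 and 1274, 453 and 461, 4655 and 4734, and 1063 and 1072 in the same order. The clonal expansion libraries of both genes agreed closely and lay above all others, and the proliferation libraries were the least alike, with proliferation 2 higher by 0.59 for Ccne1 and 0.77 for Ccne2 on the log2 scale. From quiescence to clonal expansion Ccne2 rose 10.3-fold (log2 3.36, SE 0.21, adjusted p 7.69e-07), the largest rise of any member there, and Ccne1 rose 5.05-fold (log2 2.34, SE 0.17, adjusted p 1.98e-06). The falls from proliferation to quiescence were 2.13-fold for Ccne2 (log2 -1.09, SE 0.21, adjusted p 0.00492) and 1.95-fold for Ccne1 (log2 -0.96, SE 0.17, adjusted p 0.00367).

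The E cyclins differed in how far they came down again. From clonal expansion to differentiation Ccne2 fell 4.39-fold (log2 -2.14, SE 0.21, adjusted p 7.36e-06) and Ccne1 by less (log2 -0.85, SE 0.17, adjusted p 0.00142). Both stayed above the quiescent level at differentiation, Ccne1 by 2.81-fold (log2 1.49, SE 0.17, adjusted p 3.4e-05) and Ccne2 by 2.33-fold (log2 1.22, SE 0.21, adjusted p 0.000496). Per kb, Ccne1 made up 79.0% ± 0.35 (SD, n = 2) of the E cyclin RNA at clonal expansion, its smallest share, and 90.2% ± 0.09 at differentiation, its largest. Against proliferation, Ccne1 was 1.44-fold higher at differentiation (log2 0.53, SE 0.17, adjusted p 0.0213), but this call was lost without proliferation 1 (log2 0.23, adjusted p 0.194), differentiation 1 (log2 0.52, adjusted p 0.0921) or differentiation 2 (log2 0.53, adjusted p 0.0837). It was also lost with equal library totals (log2 0.25, adjusted p 0.212), no filter on low values (adjusted p 0.125) and no mean-variance trend (adjusted p 0.0585). Ccne2 at differentiation and proliferation overlapped (log2 0.13, 95% interval -0.34 to 0.60), with a difference of -0.26 without proliferation 1, one of 0.52 (adjusted p 0.0126) without proliferation 2 and one of -0.14 with equal library totals.

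Cdk2, the kinase of the E and A cyclins, and its activating phosphatase Cdc25a followed much the same course. Cdk2 (gene ID 12566, chromosome 10, 128134995 to 128142107) gave 5137 and 6202 pseudo-counts in the proliferating libraries, 4751 and 4551 in the quiescent ones, 11250 and 11732 during clonal expansion, and 6154 and 5538 after differentiation. Cdc25a (gene ID 12530, chromosome 9, 109778083 to 109796394) measured 3282 and 4012, 2950 and 2575, 10147 and 9875, and 3358 and 3523. Both were highest in the clonal expansion libraries, without overlap with any other stage. From quiescence to clonal expansion Cdk2 rose 2.47-fold (log2 1.31, SE 0.12, adjusted p 5.78e-06) and Cdc25a 3.63-fold (log2 1.86, SE 0.12, adjusted p 1.03e-06). They fell 1.97-fold (log2 -0.98, adjusted p 2.83e-05) and 2.91-fold (log2 -1.54, adjusted p 1.7e-06) to differentiation. Neither was called apart between differentiation and proliferation (log2 0.05, 95% interval -0.21 to 0.31, for Cdk2 and log2 -0.08, 95% interval -0.35 to 0.20, for Cdc25a), though Cdc25a was called lower at differentiation with equal library totals (log2 -0.35, adjusted p 0.0223).

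The small differences of these genes depended on single libraries and on the settings of the fit. Cdc25a was 1.32-fold lower at quiescence than at proliferation (log2 -0.40, SE 0.12, adjusted p 0.0427), a call kept without proliferation 1 or quiescence 1 and lost without any other library (log2 -0.40 to -0.25, adjusted p 0.07 to 0.309). It was also lost with no filter on low values (adjusted p 0.127), no mean-variance trend (adjusted p 0.0857) and only these stages in the fit (adjusted p 0.123). At differentiation against quiescence, Cdc25a was higher by 0.32 on the log2 scale (SE 0.12, adjusted p 0.0419), which was lost without quiescence 2 or any library of clonal expansion or differentiation (log2 0.22 to 0.35, adjusted p 0.0672 to 0.171). Cdk2 was higher by 0.33 there (SE 0.12, adjusted p 0.0282), which was lost without quiescence 2 (log2 0.30, adjusted p 0.0732) or differentiation 1 (log2 0.25, adjusted p 0.172). With equal library totals these rises were 0.09 for each gene and neither was called. Cdk2 at quiescence was not called apart from proliferation (log2 -0.28, 95% interval -0.54 to -0.02, adjusted p 0.108), and was called lower without proliferation 1 (log2 -0.42, adjusted p 0.0453) and, with all libraries, once the length trend was removed (log2 -0.31, adjusted p 0.045).

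Promoter sequence was at hand for 6 of the 10 members, in RefSeq windows of build GRCm38.p6. Shown are 250 bases before the start of 3 genes that rose together at clonal expansion, and of Cdk4, which was not called there, 5′ to 3′ on each gene's own strand. Capitals mark matches to an E2F site, the core letters of a cyclic AMP response element or an E-box. The windows are chr9:109875329-109875578 on the plus strand for Cdc25a, chr10:128705052-128705301 on the minus strand for Cdk2, chr7:38107491-38107740 on the minus strand for Ccne1 and chr10:127063285-127063534 on the plus strand for Cdk4.
Cdc25a: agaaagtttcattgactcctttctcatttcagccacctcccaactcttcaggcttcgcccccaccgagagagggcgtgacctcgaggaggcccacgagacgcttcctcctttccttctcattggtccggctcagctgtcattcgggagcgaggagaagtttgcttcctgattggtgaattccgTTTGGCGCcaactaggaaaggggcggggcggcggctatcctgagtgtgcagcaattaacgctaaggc
Cdk2: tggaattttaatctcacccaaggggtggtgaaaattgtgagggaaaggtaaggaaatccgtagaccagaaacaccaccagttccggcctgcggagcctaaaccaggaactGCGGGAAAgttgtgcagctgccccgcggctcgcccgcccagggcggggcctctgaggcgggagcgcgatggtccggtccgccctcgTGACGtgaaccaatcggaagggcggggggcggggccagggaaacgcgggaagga
Ccne1: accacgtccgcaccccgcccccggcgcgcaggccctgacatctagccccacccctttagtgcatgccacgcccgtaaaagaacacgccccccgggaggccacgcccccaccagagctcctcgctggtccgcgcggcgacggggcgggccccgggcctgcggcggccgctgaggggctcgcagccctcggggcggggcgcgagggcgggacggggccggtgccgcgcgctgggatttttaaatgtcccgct
Cdk4: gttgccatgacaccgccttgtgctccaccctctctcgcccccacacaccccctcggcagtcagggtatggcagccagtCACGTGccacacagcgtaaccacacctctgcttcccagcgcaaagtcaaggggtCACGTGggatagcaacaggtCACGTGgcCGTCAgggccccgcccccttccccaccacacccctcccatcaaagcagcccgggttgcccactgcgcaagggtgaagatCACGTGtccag

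The E2F site was searched on both strands as TTTCCCGC, TTTCGCGC, TTTGCCGC or TTTGGCGC, in windows of 300 bases that run to 50 bases after the start. Cdc25a held TTTGGCGC with its first base at -67, and Cdk2 held GCGGGAAA, the reverse complement of TTTCCCGC, at -140. Of all 32544 windows, 2.28% held such a site. Ccne1, which rose more than Cdc25a or Cdk2, had no match to those letters in its window. Ccnd3 and Cdk6, also called higher at clonal expansion than at quiescence, had none either, nor had Cdk4. The letters CGTCA, the core of a cyclic AMP response element, read on either strand, was found for 4 of the 6 members with a window, Cdk2 at -54, Cdk4 at -90, Cdk6 at -81 and Ccnd3 at -165 of one start and -28 of another, and 20.9% of all windows held it. The E-box CACGTG was added to the search after these sequences had been read. Cdk4 held it at -172, -118, -98 and -11 and Cdk6 at -220, and 7.17% of all windows held it at least once. These matches describe the letters of the windows.

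Cyclin A2 differed from the E cyclins in that it did not regain its proliferative level at clonal expansion. Ccna2 (gene ID 12428, chromosome 3, 36463787 to 36470918) showed 13139 and 19978 pseudo-counts in the proliferating libraries, 5917 and 5011 in the quiescent ones, 8811 and 7945 during clonal expansion, and 2054 and 2248 after differentiation. The stages did not overlap, and each was called apart from the next in the order proliferation, clonal expansion, quiescence and differentiation. Ccna2 fell 2.97-fold from proliferation to quiescence (log2 -1.57, SE 0.18, adjusted p 0.000335), the largest fall of any member there. It rose 1.54-fold to clonal expansion (log2 0.62, SE 0.18, adjusted p 0.0105), a call lost without quiescence 2 (log2 0.50, adjusted p 0.0509), without clonal expansion 1 (log2 0.55, adjusted p 0.0587) and with equal library totals (log2 0.39, adjusted p 0.0712). Clonal expansion remained 1.94-fold below proliferation (log2 -0.95, SE 0.18, adjusted p 0.000945), where Ccne1 stood 2.59-fold and Ccne2 4.81-fold above it (log2 1.37 and 2.27, adjusted p 8.07e-05 and 1e-05). At differentiation Ccna2 was 2.53-fold below quiescence (log2 -1.34, SE 0.18, adjusted p 8.28e-05). The ratio of Ccne1 to Ccna2 per kb was 0.416 and 0.412 in the proliferation libraries, 0.643 and 0.620 in the quiescent ones, 1.98 and 2.17 during clonal expansion, and 4.72 and 4.29 after differentiation.

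Counted over the members, the stages separated as follows. From proliferation to quiescence 0 of 10 rose and 6 fell (Ccnd1, Ccnd2, Ccne1, Ccne2, Ccna2 and Cdc25a), beside 11.9% of all tested genes higher and 11.8% lower, with a median log2 change of -0.66 in the members and -0.01 in all genes. From quiescence to clonal expansion 9 rose and 0 fell, with Cdk4 not called, beside 34.4% higher and 34.4% lower, and the median was 1.30 against -0.01 for all genes. Of these rises 7 stayed called with equal library totals or with no filter, Ccna2 and Cdk6 being lost in both. Of all genes, 3763 of 14658 were higher there with equal totals and 4697 of 22798 with no filter. From clonal expansion to differentiation 1 rose (Ccnd2) and 8 fell, with Cdk6 not called, beside 36.8% higher and 36.2% lower, and the median was -1.16. Between quiescence and differentiation, 5 were higher (Ccnd2, Ccne1, Ccne2, Cdk2 and Cdc25a) and 3 lower (Ccnd1, Ccna2 and Cdk4) at differentiation, beside 33.4% and 32.9% of all genes. With no filter on low values, equal library totals, quantile normalization, no mean-variance trend or only these stages in the fit, 3 stayed higher there (Ccnd2, Ccne1 and Ccne2). Of all genes, 4803 of 22798 were higher there with no filter, 3787 of 14658 with equal totals and 4410 of 14647 with quantile normalization. The numbers were 4738 of 14647 with no mean-variance trend and 4717 of 14636 with only these stages. With no filter on low values, 12 calls over the 6 comparisons were lost, among them the falls of Ccnd1, Ccne1, Ccne2 and Cdc25a at quiescence (adjusted p 0.0726 to 0.169), the rise of Ccna2 at clonal expansion (adjusted p 0.0906) and that of Ccnd2 at differentiation (adjusted p 0.0508).

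Against proliferating cells, 6 members were higher at clonal expansion (Ccnd1, Ccnd3, Ccne1, Ccne2, Cdk2 and Cdc25a) and 1 lower (Ccna2), beside 32.7% and 32.1% of all genes. With equal library totals or quantile normalization, 5 were higher, Ccnd1 no longer being called, and 3 were lower, Ccnd2 and Cdk4 being the added ones. Of all genes, 3178 were then higher and 6412 lower of 14658 with equal totals, and 4633 and 4459 of 14647 with quantile normalization. The rises above proliferation were 2.72-fold for Ccnd3 (log2 1.45, adjusted p 6e-06), 2.76-fold for Cdc25a (log2 1.46, adjusted p 5.8e-06) and 2.04-fold for Cdk2 (log2 1.03, adjusted p 3.55e-05). Between differentiation and proliferation, 2 members were higher (Ccnd3 and Ccne1) and 3 lower (Ccnd1, Ccna2 and Cdk4), beside 34.5% and 33.3% of all genes, so shares of the members were near or below the background there. The 3 falls were 11.2-fold, 7.54-fold (log2 -2.91, adjusted p 2.76e-07) and 2.44-fold (log2 -1.29, adjusted p 4.3e-06).

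**Figure D4:**
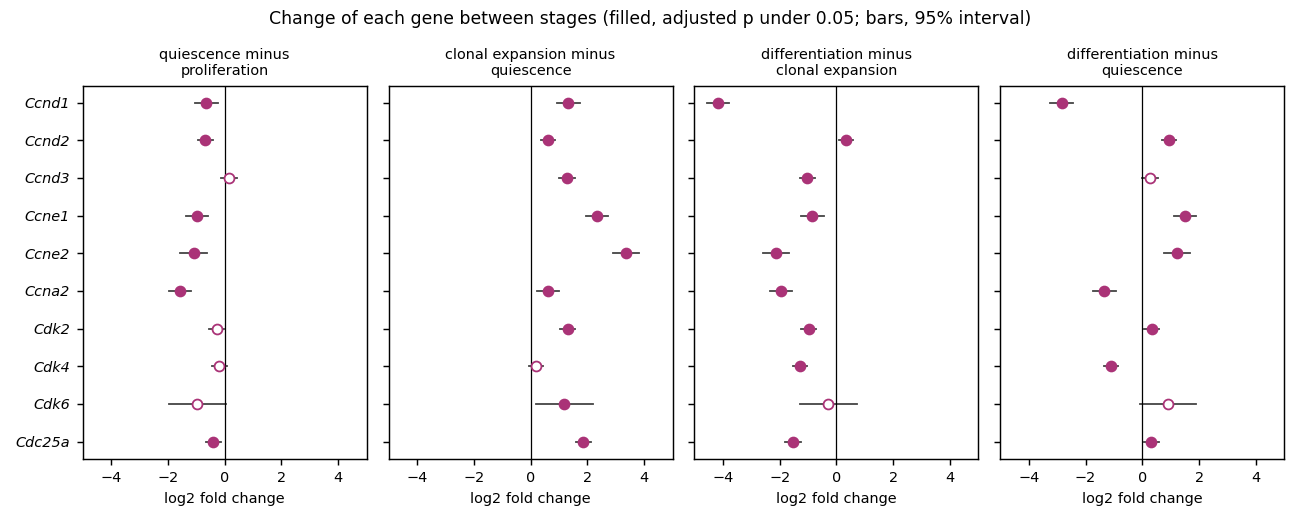
Log2 fold change of each of the 10 genes in 4 comparisons of stages, with bars for the 95% interval and filled points where the adjusted p was under 0.05. At clonal expansion minus quiescence 9 points are filled and positive, and at differentiation minus quiescence Ccnd1, Ccna2 and Cdk4 lie below 0 while Ccnd2, Ccne1 and Ccne2 lie near or above 1.

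Other genes of the pathway were counted in lists chosen with earlier results of these data known. The counts are to be read beside the shares above and medians over all genes that lay between -0.01 and 0.02 in every comparison. Inhibitors of these kinases mostly fell where the cyclins rose. Of 8 CDK inhibitor genes, 1 rose and 6 fell from quiescence to clonal expansion, with a median log2 change of -1.10. Cdkn2c, which encodes the INK4 protein p18 that binds CDK4 and CDK6, went from 2927 and 2788 pseudo-counts in quiescent libraries to 1222 and 1131 (log2 -1.28, adjusted p 1.67e-05), and Cdkn2a, the locus of p16 and ARF, fell by 1.18 on the log2 scale (adjusted p 1.13e-05). Cdkn1a, the gene of p21, rose by 0.40 (adjusted p 0.0166). From clonal expansion to differentiation 3 rose and 1 fell (median 0.45), and Cdkn2c reached 19570 and 24587 pseudo-counts (log2 4.22, SE 0.13, adjusted p 4e-09), while Cdk4 was at its lowest. Cdkn1b, the gene of p27, was lower at differentiation than at quiescence (log2 -0.91, adjusted p 1.8e-05). Cdkn1c, the gene of p57, was near the floor of the data, with 25.4 and 26.3 pseudo-counts in quiescent libraries, 0 and 1.15 during clonal expansion, and 40.7 and 48.2 after differentiation.

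Among the targets of the D cyclin kinases, the pocket protein genes Rb1 and Rbl2 fell at clonal expansion, where the E2F genes rose. The other pocket protein gene, Rbl1, rose there with the E2F genes (log2 0.77, adjusted p 0.00217). Rbl1 was also lower at quiescence than at proliferation (log2 -0.86, adjusted p 0.00535), and was not called between clonal expansion and differentiation (log2 -0.22, adjusted p 0.255). Of 13 E2F and pocket protein genes, 0 rose and 5 fell at quiescence against proliferation, 10 rose and 2 fell at clonal expansion against quiescence, and 3 rose and 8 fell at differentiation against clonal expansion, with medians of -0.25, 0.85 and -0.73. The falls at clonal expansion were Rb1 (log2 -1.19, adjusted p 1.7e-05) and Rbl2 (log2 -1.24, adjusted p 5.88e-06). Rb1 measured 2230 and 2596 pseudo-counts in quiescent libraries, 1037 and 1079 during clonal expansion, and 8780 and 7528 after differentiation, a rise of 2.94 on the log2 scale in the last step (SE 0.12, adjusted p 2.22e-08). E2f8, a repressor of the family, rose by 1.92 at clonal expansion (adjusted p 4.55e-06). E2f8 and the related E2f7 fell by 3.60 each at differentiation (adjusted p 3.51e-08 and 1.08e-07). The activator E2f2 rose by 1.76 at clonal expansion (adjusted p 2.69e-05), and E2f1 fell by 1.69 at differentiation (adjusted p 7.3e-07).

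Genes that modify or degrade the members gave mixed counts. Of 7 genes for the CDK-activating kinase, the WEE kinases and the other CDC25 phosphatases, 2 rose and 2 fell at clonal expansion against quiescence (median 0.23). Wee1, which places the phosphates that CDC25 enzymes remove, rose by 1.58 (adjusted p 3.7e-06) and fell by 1.85 at differentiation (adjusted p 7.01e-07), and Ccnh, the cyclin of the activating kinase, rose by 0.88 (adjusted p 3.06e-05). Cdc25b, unlike Cdc25a, fell by 0.63 at clonal expansion (adjusted p 0.000982). Of 14 genes for the ubiquitin ligases of cyclins and CDK inhibitors with their CKS partners, 7 rose and 0 fell there (median 0.37). Skp2, the ligase subunit that marks p27 for destruction, rose by 1.73 (SE 0.15, adjusted p 6.45e-06) and fell by 2.96 at differentiation (SE 0.15, adjusted p 8.79e-08).

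Replication genes moved together at each step, and the mitotic genes gave mixed counts at clonal expansion. All 24 replication genes listed as E2F targets fell from proliferation to quiescence, rose from quiescence to clonal expansion and fell from there to differentiation, with median log2 changes of -1.04, 1.91 and -2.55. Rrm2, a subunit of ribonucleotide reductase, rose by 3.97 (adjusted p 2.3e-07) and Cdc6, a loader of the replicative helicase, by 3.64 (adjusted p 2.17e-07) at clonal expansion. At differentiation against quiescence, 2 of the 24 were higher and 16 lower, where both E cyclins were higher. Of 6 mitotic cyclin and Cdk1 genes, 4 were tested, and all 4 fell at quiescence against proliferation (median -1.47). At clonal expansion against quiescence Cdk1 rose by 0.90 (adjusted p 0.00162) and Ccnf by 0.81 (adjusted p 0.00166), while Ccnb2 fell by 1.00 (adjusted p 0.00354). Against proliferation, Ccnb2 (log2 -2.40, adjusted p 1.41e-05) and Ccnb1 (log2 -1.40, adjusted p 0.000346) were lower at clonal expansion, as Ccna2 was. Of 26 cyclins and CDKs outside this pathway, 10 were higher and 7 lower at clonal expansion against quiescence (median 0.10), and 8 higher and 7 lower at differentiation against clonal expansion (median -0.04).

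**Figure D5:**
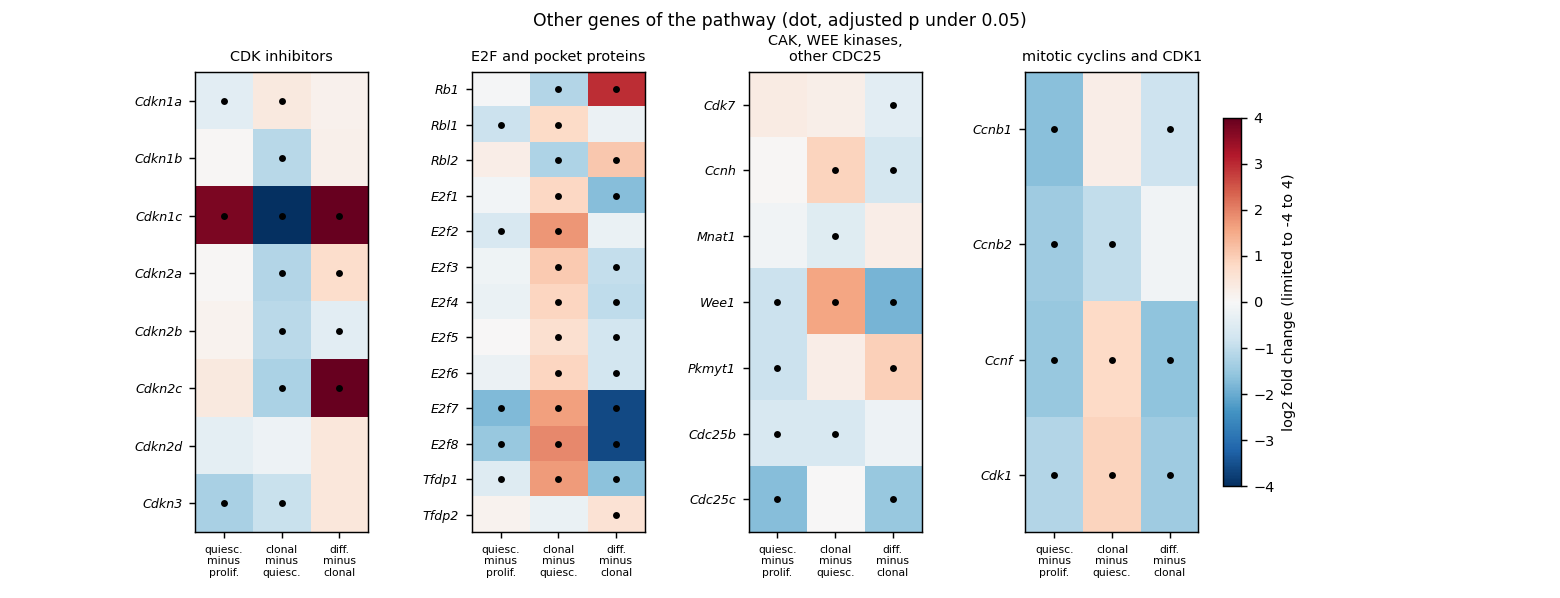
Log2 fold changes between successive stages (colour scale limited to -4 to 4) of the tested CDK inhibitors, E2F and pocket protein genes, regulators of CDK phosphorylation, and mitotic cyclins with Cdk1, with a dot where the adjusted p was under 0.05. Rb1 and Cdkn2c are lower at clonal expansion than at quiescence and higher at differentiation, and E2f7 and E2f8 show the opposite signs. The dark cells of Cdkn1c rest on values of 48.2 or less.

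The genes whose pattern was most like each member's were ranked by Pearson's r of log2(value + 1) over the 8 libraries, as a description of points that share stage and library. For Ccna2 these were Racgap1, Sgol1 and Shcbp1 (r = 0.998, 0.997 and 0.997), of which Racgap1 acts in cytokinesis and Sgol1 protects centromere cohesion. For Ccnd1 they were Nr4a2, Nkx2-5 and Id2 (r = 0.998, 0.997 and 0.997), and Id2, an inhibitor of helix-loop-helix factors, had stage means of 6430, 3554, 10324 and 204 from proliferation to differentiation. For Ccnd2 they were Rdh11, Acly and Hsd17b7 (r = 0.996, 0.987 and 0.969), and Acly, which makes acetyl-CoA for lipid synthesis, had means of 67569, 31275, 65703 and 97802. For Ccnd3 they were Ddah1, Ccnh and Tmed9 (r = 0.996, 0.995 and 0.994). For Ccne1 they were Eef1e1, Rad23b and Rnh1 (r = 0.994, 0.991 and 0.990), and for Ccne2 Eif2s1, Prkar2a and Arl6ip6 (r = 0.998, 0.997 and 0.996). Cdc25a was most like Ddx27, Gart and Eif5b (r = 0.999, 0.998 and 0.998), of which Gart is an enzyme of purine synthesis, and Cdk2 most like Usp39, Pigf and Arl6ip6 (r = 0.997, 0.997 and 0.995). Cdk4 was most like Thy1, Zfp511 and Raly (r = 0.998, 0.997 and 0.997), and Cdk6 most like Akap10, Mib1 and Trip11 (r = 0.984, 0.972 and 0.971). Between members, r was 0.989 for Cdk2 with Cdc25a and 0.972 for Ccnd1 with Cdk4, and it was -0.53 for Ccnd2 with Cdk4 and -0.42 for Ccnd1 with Ccnd2.

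The libraries were unstranded, so reads from genes that overlap cannot be told apart. Ccne2 overlaps Ints8 over 5622 nt in the coordinates of the table, and Ints8 stood between 5341 and 9238 pseudo-counts in every library, above Ccne2 at each stage. Its values were 6254 and 7001 at quiescence and 8787 and 9238 at clonal expansion. The part of Ints8 reads in the Ccne2 values was not tested. Ccnd2 overlaps 9330179D12Rik over 1660 nt, which reached at most 294 pseudo-counts. Cdc25a lies within the span the table gives for Cdkn2d, 21092908 to 123839607, which is too wide for that gene.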

How the data were processed

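RNA-seq libraries of 3T3-L1 cells, 2 at each of 4 stages, were grouped by the culture stage in their labels. The deposited table gives a signal per gene, which the authors made as pseudo-counts at a common library size with edgeR and relative log expression factors, per the file headers and name. Software and build, per the submitters' processing notes, were CASAVA 1.8.2, edgeR and mm9; the aligner and gene models are not given in the sources used here. Pseudo-counts hide the depth of each library, so no count model was run, and their precision is shown by the libraries' spread.

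The table was read in Python 3.11.15 (pandas 2.3.3, numpy 2.4.6). Genes with a mean of at least 10 were fitted with limma 3.58.1 in R 4.3.3 on log2(value + 1) of the 8 libraries, allowing a mean-variance trend, with 6 pairwise comparisons of stages, two-sided tests and Benjamini-Hochberg adjustment over all 14647 genes at a threshold of 0.05. The fit was also run on data simulated with independent normal noise at the fit's own variances. Such data hold no gaps between libraries that move with transcript length, so they cannot test the fit against those. Fold changes are on the log2(value + 1) scale. Residual degrees of freedom were 4, or 9.78 with those borrowed across genes, and the median standard error was 0.14. Transcript lengths were those of each gene's longest RefSeq-linked transcript in GENCODE vM21, for 13904 of the genes tested, and promoters came from RefSeq.

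The members and the gene lists were chosen with earlier results of these data known. Named were all members, up to 3 genes per list, direction and comparison with the largest called change, and the 3 genes most like each member. Lyz2, Ptprc, Emr1, Krt18, Epcam, Des and the overlapping genes were named after their values were seen. Alternatives were other pseudocounts, filters, scalings, a replicate block, removal of the length trend, fits of 2 stages and leaving out each library.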

Additional observations from a re-analysis of the deposited data

How the results depend on the processing

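Of 1200 values (60 member differences under 20 settings), 1087 kept their direction and their side of the threshold. Pseudocounts of 0.5 and 8 and filters at a mean of 1 or 50 changed none. With no filter, 2 members in place of 6 fell from proliferation to quiescence, 7 in place of 9 rose from there to clonal expansion, 0 in place of 1 rose from clonal expansion to differentiation, 3 in place of 5 were higher at differentiation than at quiescence, and 0 in place of 2 were higher at differentiation than at proliferation. Over all genes, no filter gave 804 of 22798 lower in the first of these comparisons, against 1732 of 14647 with the filter. It gave 4697, 5473, 4803 and 5042 higher in the others, against 5038, 5390, 4892 and 5051. Equal library totals gave 7 higher at clonal expansion than at quiescence, 3 higher at differentiation than at quiescence, 3 lower at clonal expansion than at proliferation and 0 higher at differentiation than at proliferation. Quantile normalization gave 9, 3, 3 and 1. Over all genes, these counts were 3763, 3787, 6412 and 3750 of 14658 with equal totals. They were 4824, 4410, 4459 and 4608 of 14647 with quantile normalization. Equal totals, quantile normalization and no filter each gave 5 in place of 6 higher at clonal expansion than at proliferation. Of all genes, 3178, 4633 and 4461 were higher there. Equal totals gave 4 in place of 3 lower at differentiation than at proliferation, beside 6533 of all genes. Without a mean-variance trend 4 were lower at quiescence than at proliferation, 8 higher at clonal expansion than at quiescence, 3 higher at differentiation than at quiescence and 1 than at proliferation, and with only the 2 stages compared these counts were 5, 8, 3 and 3. Over all genes they were 1282, 4815, 4738 and 4924 of 14647 without the trend. With only the 2 stages they were 1253 of 14389, 4760 of 14351, 4717 of 14636 and 5331 of 14677. With the length trend removed 7 were lower at quiescence than at proliferation (8 with the replicate block), 6 higher at differentiation than at quiescence and 3 than at proliferation. Over all genes these counts were 2294 (2424 with the replicate block), 5142 and 5210 of 13904. The cause was not tested.

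Leaving out 1 library at a time changed which members were called in each comparison. At clonal expansion against quiescence, the log2 difference then ranged from 1.227 to 1.44 for Ccnd1, 0.544 to 0.686 for Ccnd2 and 1.165 to 1.416 for Ccnd3. It ranged from 2.189 to 2.482 for Ccne1, 3.346 to 3.37 for Ccne2 and 0.5 to 0.739 for Ccna2. For Cdk2 it was 1.274 to 1.336, for Cdk4 0.035 to 0.335, for Cdk6 0.377 to 2.0 and for Cdc25a 1.763 to 1.958. A stage left with 1 library was assumed to vary like the others.

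Every change of sign concerned a difference that was not called. With equal totals they were Cdk4 at clonal expansion against quiescence (-0.05), Cdk6 at clonal expansion against proliferation (-0.05), and Ccnd2 (-0.014), Ccne2 (-0.145) and Cdk2 (-0.226) at differentiation against proliferation. With quantile normalization they were Cdk4 (-0.136) and Cdk2 (-0.008) in those comparisons. With the length trend removed, with or without the replicate block, Ccnd2 was at 0.005 at clonal expansion against proliferation, and Cdk6 was at 0.039 and Cdc25a at 0.013 at differentiation against proliferation. Leaving out 1 library at a time, Cdk6 ranged from -0.764 to 0.191 at differentiation against clonal expansion. At clonal expansion against proliferation, Cdk4 ranged from -0.062 to 0.057 and Cdk6 from -0.253 to 0.702. At differentiation against proliferation, Ccne2 ranged from -0.255 to 0.515, Cdk2 from -0.087 to 0.185, Cdk6 from -0.242 to 0.117 and Cdc25a from -0.222 to 0.068.

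The experiment numbers were not taken as pairing: deviations of same-numbered libraries correlated at 0.35 for quiescence with clonal expansion and 0.13 for quiescence with differentiation, and at 0.01 to 0.07 otherwise. With the replicate block 58 of 60 member results were as before and Cdk6 was called lower at quiescence than at proliferation (log2 -0.96, adjusted p 0.0324) and higher at differentiation than at quiescence (log2 0.90, adjusted p 0.0174).

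Without division by transcript length the share of Ccnd1 was 33.0%, 31.9%, 41.1% and 3.55% from proliferation to differentiation, that of Ccnd2 60.2%, 56.7%, 44.5% and 85.6%, that of Ccnd3 6.81%, 11.4%, 14.3% and 10.9%, that of Ccne1 82.3%, 83.5%, 71.4% and 85.9%, and that of Cdk4 94.6%, 96.1%, 93.3% and 88.1%.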
